A study of Oryza sativa with 2 samples.

Results

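The 8 genes described here encode the light-harvesting antenna of photosystem II, the Lhcb proteins, in seedlings of the rice cultivar 93-11. They were chosen by locus ID from a list that gives 3 copies of Lhcb1 and 1 locus each for Lhcb2, Lhcb3, Lhcb4, Lhcb5 and Lhcb6, and all 8 were found among the 37896 rows of both tables. The names come from that list, since the tables pair no ID with a name. The RefSeq gene table of Japonica rice matched 0 of the 8 IDs, so the names and the labelled tissue could not be checked against annotated markers. Each of the 2 libraries was made from poly(A) RNA of whole plants of the wild type, 3 weeks old, without any mutation or treatment named in the labels. The plants grew in Yoshida nutrient solution with 10 h of light at 800 μmol per m2 per s and 14 h of dark. Both libraries form 1 group, replicates 1 and 2. The labels do not say whether they came from separate plants, so the spread may be partly technical, and with 1 group no test between conditions was possible.

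Lhcb proteins are encoded in the nucleus, made in the cytosol, imported into the chloroplast and inserted in the thylakoid membrane, where they bind chlorophyll a, chlorophyll b and xanthophylls and pass excitation energy to the photosystem II core. Lhcb1, Lhcb2 and Lhcb3 form the trimers of the major antenna. Lhcb4 (CP29), Lhcb5 (CP26) and Lhcb6 (CP24) are monomers that sit between the trimers and the core. In green tissue the family is known for abundant mRNA that responds to light and follows the circadian clock. The sources used here do not give the hour of harvest. In whole plants, a smaller number of green cells and less transcript per green cell cannot be told apart.

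All 8 Lhcb loci were among the most abundant transcripts of the seedlings. Levels are given as FPKM, fragments divided by transcript length and by the mapped total, so that loci of different length can be compared. Every member had a mean above 1000 FPKM, a level reached by 59 loci in all, 13.6% of them Lhcb. By the mean of the libraries, 2 members were among the 10 most abundant loci, 5 among the 20 most abundant and 8 among the 50 most abundant. The lowest member was at 1153 times the median locus in replicate 1 and at 544 times in replicate 2. Together the family summed to 35719 FPKM in replicate 1 and 25356 in replicate 2. That was 4.82% and 3.79% of all FPKM, or 4.31% ± 0.723 (SD, n = 2). The number of sequenced fragments is unknown, and no counting interval could be given.

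Lhcb1, the main protein of the trimers, held the largest part of the transcript pool, and its 3 copies were far from equal. The copy LOC_Os01g41710 on chromosome 1 was the highest member in both libraries, with 8311 FPKM in replicate 1 and 7119 in replicate 2. It ranked 5 among all loci in replicate 1 and 2 in replicate 2, with a mean of 7715 ± 843 FPKM (SD, n = 2). Relative to the mean, the libraries lay closer together here than at any other member, with an SD of 10.9% of the mean. LOC_Os09g17740 on chromosome 9 came next, with 7062 FPKM in replicate 1 and 5011 in replicate 2, a mean of 6037 ± 1450 FPKM. The third copy, LOC_Os01g52240 on chromosome 1, had 2563 FPKM in replicate 1 and 1134 in replicate 2, a mean of 1849 ± 1010 FPKM. It was the member with the widest spread, its SD being 54.6% of the mean. Of the summed Lhcb1 level, LOC_Os01g41710 made up 46.3% in replicate 1 and 53.7% in replicate 2. LOC_Os09g17740 made up 39.4% and 37.8%, and LOC_Os01g52240 14.3% and 8.55%. The order of the 3 copies was the same in both libraries. Copies of 1 Lhcb type are close in sequence, and how fragments that match several copies were assigned is not given, so these shares are uncertain. The IDs have the form used for Japonica rice while 93-11 is an Indica cultivar, so if reads were aligned to a Japonica genome, differences in sequence could also affect the level of each copy, which was not tested.

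Transcripts of the other trimer proteins had levels similar to each other. Lhcb2, which with Lhcb1 is phosphorylated when antenna moves between the photosystems, stood at 5147 FPKM in replicate 1 and 3361 in replicate 2 (LOC_Os03g39610, chromosome 3). Lhcb3, which lacks the phosphorylated threonine of Lhcb1 and Lhcb2, stood at 4574 FPKM in replicate 1 and 3225 in replicate 2 (LOC_Os07g37550, chromosome 7). The means were 4254 ± 1263 FPKM for Lhcb2 and 3900 ± 954 FPKM for Lhcb3 (SD, n = 2). Lhcb2 was higher than Lhcb3 in both libraries, by 1.13 times in replicate 1 and 1.04 times in replicate 2, a gap smaller than the spread between libraries. Summed Lhcb1 exceeded Lhcb2 by 3.48 times in replicate 1 and 3.95 times in replicate 2, and Lhcb3 by 3.92 and 4.11 times.

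**Figure D1:**
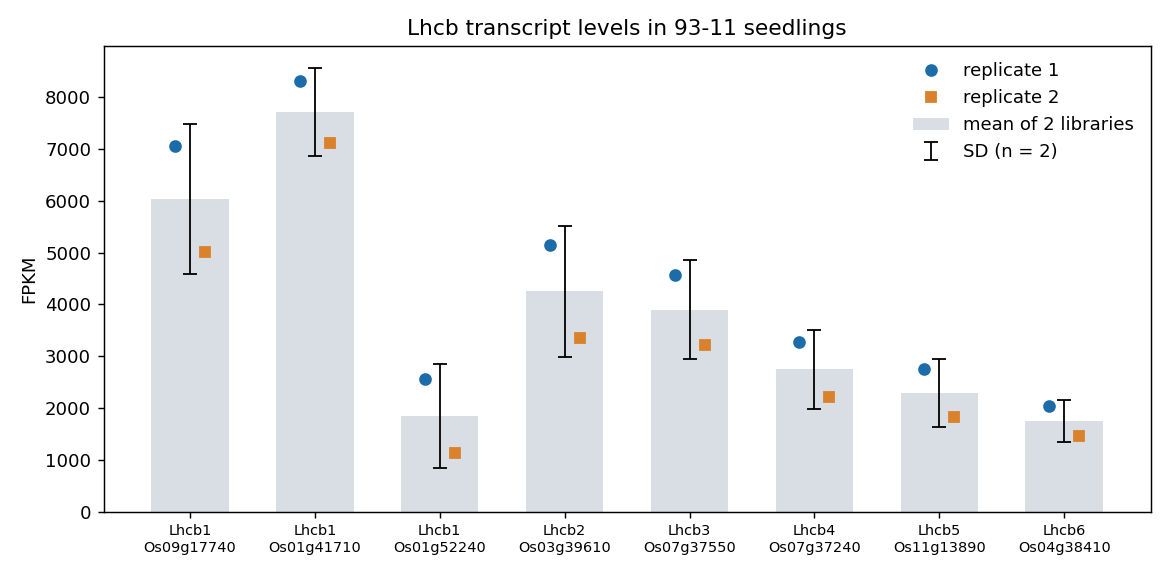
FPKM of the 8 Lhcb loci (linear axis from 0); bars are means of the 2 libraries, error bars the SD (n = 2), circles replicate 1 and squares replicate 2. Each locus was higher in replicate 1, and the 3 Lhcb1 copies run from 1849 to 7715 FPKM on average.

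The 3 monomer genes formed a graded series below Lhcb3. Lhcb4, the antenna protein next to the core that also anchors Lhcb6, had 3277 FPKM in replicate 1 and 2212 in replicate 2 (LOC_Os07g37240, chromosome 7). Lhcb5, a monomer across the core from Lhcb4, had 2749 FPKM in replicate 1 and 1831 in replicate 2 (LOC_Os11g13890, chromosome 11). Lhcb6, a type found in land plants, had 2036 FPKM in replicate 1 and 1462 in replicate 2 (LOC_Os04g38410, chromosome 4). The order Lhcb4, Lhcb5, Lhcb6 held in each library, and the steps were alike. Lhcb4 was 1.19 times Lhcb5 in replicate 1 and 1.21 times in replicate 2, and Lhcb5 was 1.35 and 1.25 times Lhcb6. The means were 2745 ± 753 FPKM for Lhcb4, 2290 ± 649 FPKM for Lhcb5 and 1749 ± 406 FPKM for Lhcb6 (SD, n = 2).

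By Lhcb type, the make-up of the pool differed little between the libraries although its size did. The shares of the Lhcb1 copies on chromosome 1 shifted more, in opposite directions. Lhcb1 held 50.2% of the summed Lhcb FPKM in replicate 1 and 52.3% in replicate 2. Lhcb2 held 13.8% ± 0.817, Lhcb3 12.8% ± 0.0610, Lhcb4 8.95% ± 0.318, Lhcb5 7.46% ± 0.335 and Lhcb6 5.73% ± 0.0473 (SD, n = 2). Major antenna transcripts, those of Lhcb1 to Lhcb3, summed to 27658 FPKM in replicate 1 and 19851 in replicate 2. Minor antenna transcripts, those of Lhcb4 to Lhcb6, summed to 8062 and 5505 FPKM. The major to minor ratio was 3.43 in replicate 1 and 3.61 in replicate 2, a mean of 3.52 ± 0.124. It describes transcripts and not protein.

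**Figure D2:**
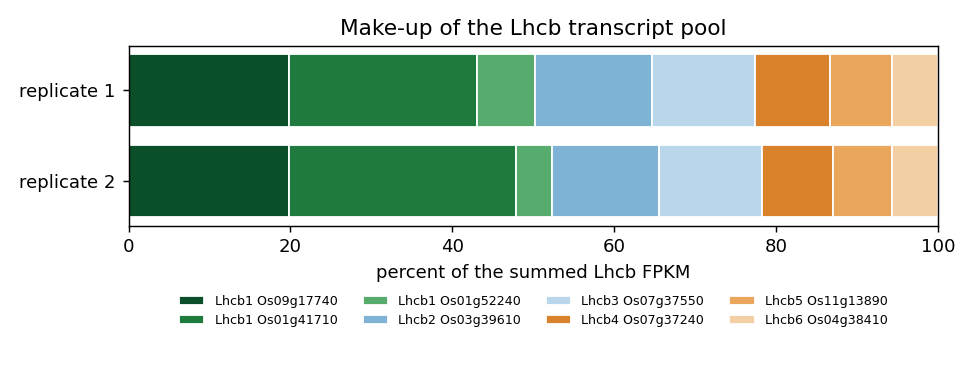
Percent of the summed Lhcb FPKM held by each locus in each library (stacked bars to 100 percent; green Lhcb1 copies, blue Lhcb2 and Lhcb3, orange the monomer genes). LOC_Os01g41710 takes 23.3% in replicate 1 and 28.1% in replicate 2, LOC_Os01g52240 takes 7.17% and 4.47%, and the other segments shift by at most 1.16 percentage points.

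Ranked by level, 6 of 8 positions held the same member in both libraries. The order was LOC_Os01g41710, LOC_Os09g17740, Lhcb2, Lhcb3, Lhcb4 and Lhcb5, and below them LOC_Os01g52240 and Lhcb6 changed places. LOC_Os01g52240 was 1.26 times Lhcb6 in replicate 1 and 0.776 times Lhcb6 in replicate 2. Over both libraries as deposited, the ranges of neighbours in this order overlapped in 6 of 7 pairs, the exception being the first pair. These ranges hold the shift towards replicate 1 shared by all 8 members as well as the spread of each locus. Whether the ranges overlap after scaling was not tested. The order within a library, which scaling does not change, repeated in all but the last pair. The highest member was 4.08 times the lowest in replicate 1 and 6.28 times in replicate 2.

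Each of the 8 Lhcb loci was higher in replicate 1, both as deposited and once both totals had been made equal. Among all 10366 loci averaging at least 10 FPKM, 43.5% were higher in replicate 1 after scaling. The members' median log2 ratio of replicate 1 over replicate 2 was 0.54 as deposited and 0.39 after scaling, against 0.09 and -0.05 for those 10366 loci; the scaling shifts the members' ratios by -0.15. Ratios were taken of FPKM + 1, which changes little at the members' levels and makes this shift smaller at loci of low level. The direction was shared by other abundant loci: of the loci averaging at least 1000 FPKM, the members included, 88.1% were higher in replicate 1. The 51 of them that are not Lhcb had a median log2 ratio of 0.39 after scaling, with a range from -0.77 to 1.03. The Lhcb median was close to that of these loci. With 1 library on each side these ratios carry no test.

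**Figure D3:**
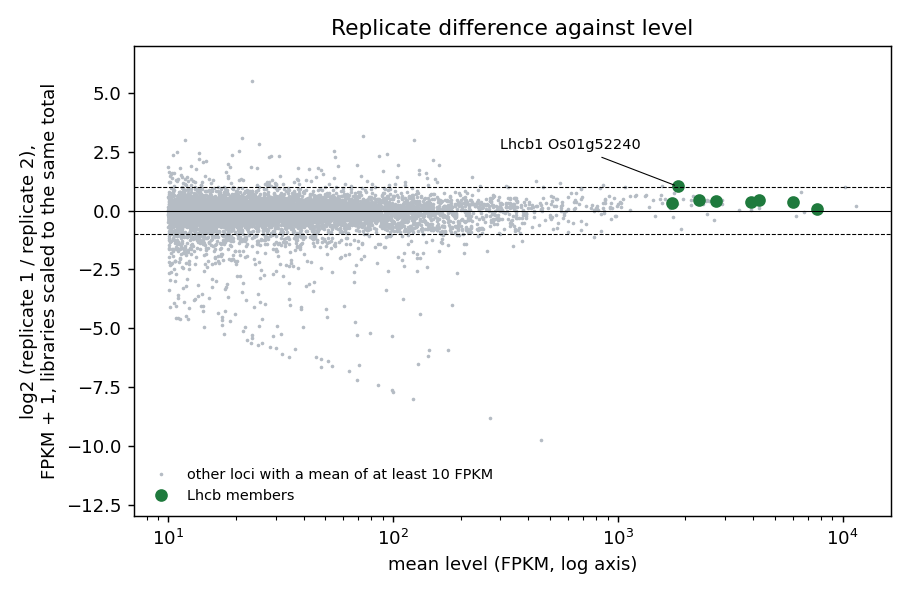
Log2 ratio of replicate 1 over replicate 2 (FPKM + 1, scaled to the same total) against mean FPKM (log axis) for 10366 loci, Lhcb members as large green points; dashed lines mark 2-fold. All 8 members lie above 0, 7 of them at 0.46 or less and LOC_Os01g52240 at 1.02.

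Of the members, 6 had similar replicate ratios, while the smallest and the largest were those of the Lhcb1 copies on chromosome 1. As deposited, LOC_Os09g17740, Lhcb2, Lhcb3, Lhcb4, Lhcb5 and Lhcb6 were 1.39 to 1.53 times higher in replicate 1. Among these 6, the ratio of any member to another differed between the libraries by at most 1.10-fold over 15 pairs. These 6 are the members left once the smallest and largest ratios were set aside, so their closeness follows partly from that choice. LOC_Os01g41710 was 1.17 times higher in replicate 1, the smallest difference of the family. LOC_Os01g52240 was 2.26 times higher, and 2.03 times after scaling, a log2 ratio of 1.02. It was the only member past 1.5-fold or 2-fold after scaling to the same total; as deposited, Lhcb2 (log2 ratio 0.61) and Lhcb5 (log2 ratio 0.59) also passed 1.5-fold, and Lhcb2 did with a total that left out the 100 most abundant loci. Among loci averaging at least 10 FPKM, 4.67% were over 1.5-fold and 1.28% over 2-fold higher in replicate 1 after scaling. As deposited, 16.7% of these loci were over 1.5-fold apart in either direction. After scaling, 93.7% of them had a smaller difference in either direction than LOC_Os01g52240. Of the 59 loci averaging at least 1000 FPKM, LOC_Os01g52240 included, 22.0% were over 1.5-fold and 5.08% over 2-fold higher in replicate 1. Of the 51 that are not Lhcb, 12 were over 1.5-fold and 2 over 2-fold higher. Of the 28 pairs of members, 6 had a ratio that differed more than 1.5-fold between the libraries, and LOC_Os01g52240 was in all 6. Because these pairs share that locus, the count restates its replicate ratio and adds nothing to it. The pair of chromosome 1 copies differed most: LOC_Os01g41710 was 3.24 times LOC_Os01g52240 in replicate 1 and 6.28 times in replicate 2. How fragments that match several Lhcb1 copies were assigned is not given, so the replicate ratios of single copies are uncertain. Whether that assignment differed between the libraries was not tested.

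The members lay on 6 chromosomes, and their neighbours by locus number had lower levels than the members. Of the 16 loci listed next to a member on either side, 4 were listed at 0 in both libraries, 6 had a mean of 10 FPKM or more, and the median was 4.11 FPKM. Over all rows the median was 1.77 FPKM in replicate 1 and 2.09 in replicate 2, and 10366 of 37896 rows averaged at least 10 FPKM. The neighbours were thus not low beside all loci. The 2 next to LOC_Os01g52240 were the highest of the 16. The lower-numbered one had 631 FPKM in replicate 1 and 237 in replicate 2, and the higher-numbered one 144 and 59.1 FPKM. As deposited they were 2.66 and 2.44 times higher in replicate 1, beside 2.26 times for LOC_Os01g52240 itself. The second locus on the lower-numbered side went the other way, with 67.6 FPKM in replicate 1 and 94.3 in replicate 2. On the higher-numbered side the second locus had 37.0 and 25.5 FPKM. These values were looked at after the ratio of LOC_Os01g52240 was known. Whether the 3 adjacent loci overlap or share fragments was not tested, since the tables give no gene positions.

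**Figure D4:**
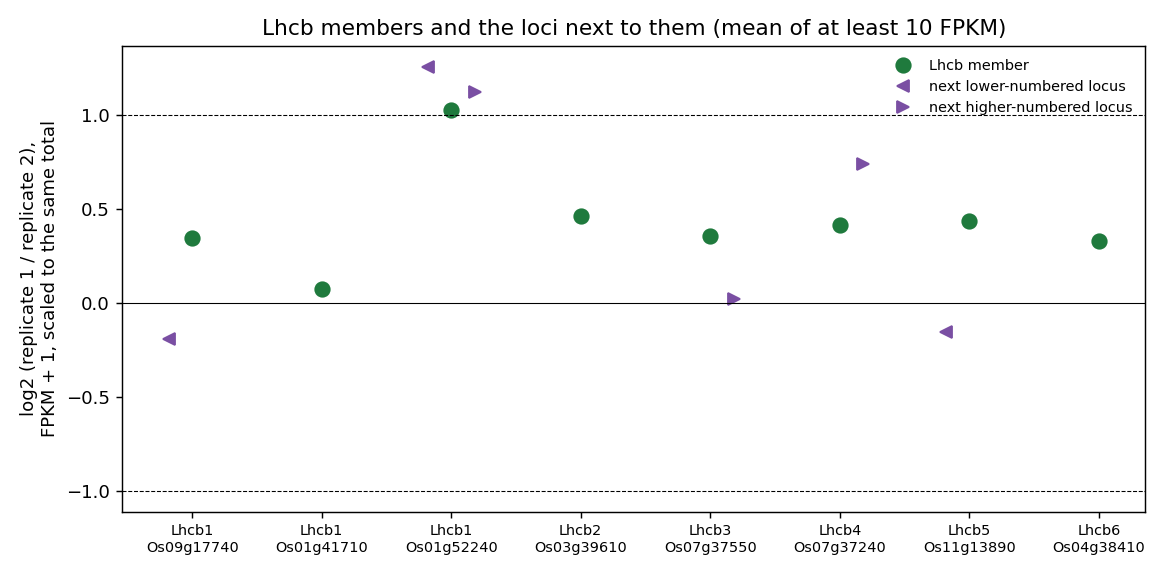
Log2 ratio of replicate 1 over replicate 2 (FPKM + 1, scaled to the same total) for each Lhcb locus (circles) and the loci next to it by number (triangles, only those averaging at least 10 FPKM). Both triangles beside LOC_Os01g52240 lie above 1, at 1.26 and 1.12, and the 4 triangles beside other members lie between -0.19 and 0.74.

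Next to the other members, 4 loci had a mean of 10 FPKM or more. The highest, beside Lhcb4, had 118 FPKM in replicate 1 and 63.3 in replicate 2, a log2 ratio of 0.74 after scaling. The loci beside LOC_Os09g17740, Lhcb3 and Lhcb5 had log2 ratios of -0.19, 0.02 and -0.16, lower than the members they adjoin. Lhcb2 stood between loci listed at 0 in both libraries, and the next loci of LOC_Os01g41710 were listed at 0 or under 1 FPKM. Lhcb4 and Lhcb3 lie near each other on chromosome 7, with 21 listed loci between them. Those 21 loci had a median of 0.303 FPKM and a highest mean of 121 FPKM, far below both members.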

How the data were processed

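For each library the authors deposited a table of locus IDs and FPKM values, per the file headers. The submitters' processing notes list TopHat2 and Cufflinks and no versions. The sources used here do not give the build, annotation, strand setting or filters; the ID form is that of a Japonica annotation, whereas 93-11 is Indica. FPKM holds no counts, so depth is unknown. Among 1532 loci under 0.3 FPKM the most frequent log2 ratio of the libraries lay between -0.2 and -0.15, with 4.37% of the loci; without locus lengths, fragments were not recovered from these steps. The tables summed to 741624 FPKM in replicate 1 and 668305 in replicate 2. Means and SDs are over the 2 libraries as deposited. Replicate ratios are log2 of FPKM + 1 after scaling both libraries to their mean total, with limits of 1.5-fold and 2-fold, set beside all loci averaging at least 10 FPKM; no p-value was computed. The calculation was tested on simulated data with large planted changes and less spread than between these libraries. That test checks the code and does not measure accuracy at the spread seen here. Alternatives were other scalings and pseudocounts, other level minimums and each library alone. The members, lists and rules were chosen with earlier results of these data known. All 8 members are named; the rule also names the 2 other loci averaging at least 100 FPKM nearest to the members' median pair of log2 values. The planned comparison with other antenna and photosystem genes and with protein sequences was not run, because the IDs matched no annotated entry. Python 3.11.15, numpy 2.4.6, pandas 2.3.3 and matplotlib 3.10.9 were used.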

Additional observations from a re-analysis of the deposited data

How the results depend on the processing

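No paired analysis was possible because the series holds 1 group. All 8 members were higher in replicate 1, and 1 was past 2-fold, under each of the 4 other scalings and 2 other pseudocounts tried. The number of members past 1.5-fold was 1 under most settings. As deposited it was 3, with Lhcb2 and Lhcb5 past the limit, Lhcb5 only just at 1.501-fold. In that setting 16.7% of loci averaging at least 10 FPKM were past 1.5-fold in either direction. The number of members was 2 with the same total without the 100 most abundant loci, when Lhcb2 passes. It stayed at 1 with a total that leaves out loci of 1000 FPKM or more, a setting chosen after seeing the data. The Lhcb share of the summed FPKM was 3.79% to 4.82% in 1 library alone and 5.84% without the 100 most abundant other loci in the denominator. The major to minor ratio was 3.43 to 3.61 in 1 library alone, 2.36 without the most abundant Lhcb1 copy and 3.26 without LOC_Os01g52240, the last chosen after seeing the data. Fewer loci in these sums account for the last 3 shifts by construction. Among the single members' log2 ratios, 45 values under alternatives kept their side of both limits and 3 moved past 1.5-fold. Among loci averaging at least 10 FPKM, 16.4% were past 1.5-fold in either direction, and among those averaging at least 100 FPKM, 26.3%. Without a filter on level the share was 14.0%. With 2 libraries of unknown depth, no member's replicate difference could be tested.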

Other observations

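Other loci share the level range of the Lhcb genes. In both libraries 24 loci that are not members lay between the lowest and the highest member, and 20 of them were higher in replicate 1 after scaling, with a median log2 ratio of 0.35. The 2 loci nearest to the members' median pair of levels, 3872 FPKM in replicate 1 and 2671 in replicate 2, were LOC_Os02g10390 and LOC_Os08g10020. LOC_Os02g10390 on chromosome 2 had 3333 FPKM in replicate 1 and 2481 in replicate 2, at a distance of 0.24 on the log2 scale. LOC_Os08g10020 on chromosome 8 had 3490 FPKM in replicate 1 and 2300 in replicate 2, at a distance of 0.26. Over 2 libraries of 1 group this likeness is level and replicate ratio alone, and neither ID is paired with a name in the sources used here.

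In the RefSeq gene table of Japonica rice (assembly ASM3414082v1, 39387 genes), 3 entries carry the synonym LHCP, an older name for the light-harvesting chlorophyll protein. They lie on chromosomes 1, 3 and 9, each of which holds at least 1 member here. No shared ID ties these entries to the members, so no name or position was carried over.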
